A study of Mus musculus with 2 samples.

Results

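The genes described here encode amino acid transporters and their relatives. They were chosen by name: every non-control spot whose gene symbol on the array begins with Slc1a, Slc6a, Slc7a, Slc36a, Slc38a or Slc43a and a digit, together with Slc3a1 and Slc3a2. This gave 62 genes of 27337 on the array, read by 110 probes, with 1 value per gene from the probe with the highest mean signal. One of them, Slc7a6os, lies next to Slc7a6 and only shares its name, so 61 genes are transporters or their close relatives. The values come from leukemia-initiating cells, the cells of a leukaemia that can start the disease again, taken from female mice with acute myeloid leukaemia.

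The cells carried the MLL-AF9 fusion oncogene with a yellow fluorescent protein reporter (YFP) and came from bone marrow, sorted for YFP together with the surface proteins Mac-1 and c-Kit. The groups were Jam3-null cells and wild-type (WT) cells, which differ by label in Jam3, a junctional adhesion molecule of the cell surface. All cells of both groups carry the fusion oncogene. Each group was 1 one-colour array, and its label names 3 mice; the sources used here give neither the age of the mice nor how their RNA was pooled. A single array stands for each genotype, so the differences have no replicate check and carry no p-value. Neither array gave a Jam3 signal that passed as well above background: its 2 probes had processed signals, on a linear scale, of 28.1 and 5.404 in Jam3-null cells and 5.09 and 3.23 in WT cells, so it does not check the labels.

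Cells take up amino acids through transporter families that differ in what drives them. Members of the Slc7 light chain group pair with a heavy chain, Slc3a2 or Slc3a1, and exchange one amino acid for another, while Slc38, Slc6 and Slc1 members mostly use the sodium gradient and Slc36 members protons. In dividing leukaemia cells these carriers supply glutamine, leucine, arginine and cystine, and several are known targets of the transcription factor ATF4, which is made when amino acids run short.

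The sequences below show where an ATF4-type amino acid response element, or another motif tied to growth or myeloid genes, stands before 3 of these genes. Of 62 genes, 44 had a window of 250 bases before a RefSeq start (GRCm38.p6). The letters TTGCATCA, searched on both strands, were found in 2 of them, Slc7a11 and Slc7a7, against 0.918% of 27025 genes with a window. Slc7a11, the cystine and glutamate exchanger, holds the element at bases -66 to -59 and -47 to -40, and is printed in full. Slc7a7 has 5 annotated starts, and only a stretch of 30 bases is printed, because the window of 1 start overlaps the gene downstream of another. Slc36a1, one of the genes with more signal in Jam3-null cells, is shown because its window holds an E-box and a C/EBP match. Capitals mark every match to the searched motifs.
Slc7a11, chr3:50443614-50443863, minus strand: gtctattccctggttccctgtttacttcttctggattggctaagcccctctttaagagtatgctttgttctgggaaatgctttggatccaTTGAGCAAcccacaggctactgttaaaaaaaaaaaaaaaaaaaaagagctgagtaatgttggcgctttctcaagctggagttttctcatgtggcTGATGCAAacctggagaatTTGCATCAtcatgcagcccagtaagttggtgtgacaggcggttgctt
Slc7a7, chr14:54417923-54417952, minus strand: tagaagcTGATGCAAcagcttccccgaggg
Slc36a1, chr11:55204090-55204339, plus strand: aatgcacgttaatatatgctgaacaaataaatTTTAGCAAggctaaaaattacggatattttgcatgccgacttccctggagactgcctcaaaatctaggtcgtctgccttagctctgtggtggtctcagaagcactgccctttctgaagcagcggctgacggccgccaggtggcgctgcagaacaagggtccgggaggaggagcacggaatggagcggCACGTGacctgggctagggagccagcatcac
The other 3 motifs were the E-box CACGTG, the PU.1 motif GAGGAAGT and the C/EBP motif TTGCNNAA. The E-box was in 9 of the 44 genes (6.86% of all genes with a window), the C/EBP motif in 8 (10.8%) and the PU.1 motif in 0 (2.79%). None of these letter matches overlapped another in the 3 sequences shown. The motifs were chosen after the values were seen, and a match is a stretch of letters, not a shown site of binding.

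Of the 62 genes, 25 were well above background on both arrays, 2 in Jam3-null cells alone, 11 in WT cells alone and 24 on neither. These are 40.3%, 3.23%, 17.7% and 38.7% of the 62, against 52.5%, 1.86%, 8.995% and 36.7% of all genes on the array. Dimmer spots passed on the WT array than on the Jam3-null array (lowest passing signal 25.9 for Jam3-null and 15.4 for WT), so these counts are no balance of directions.

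Many of the 24 genes seen in neither are known as carriers of brain, kidney or gut. Their signals ran from 5.17 to 25.6 in Jam3-null cells and from 3.11 to 18.2 in WT cells, the highest in both being Slc1a2, the main glutamate carrier of astrocytes. They included Slc1a1, Slc1a2, Slc1a6, Slc1a7, Slc6a3, Slc6a4, Slc6a5, Slc6a8, Slc6a11, Slc6a15, Slc6a19, Slc6a20a, Slc6a20b, Slc7a2, Slc7a9, Slc7a10, Slc7a12, Slc7a13, Slc38a3, Slc38a4, Slc38a5, Slc38a8 and Slc38a11.

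**Figure D1:**
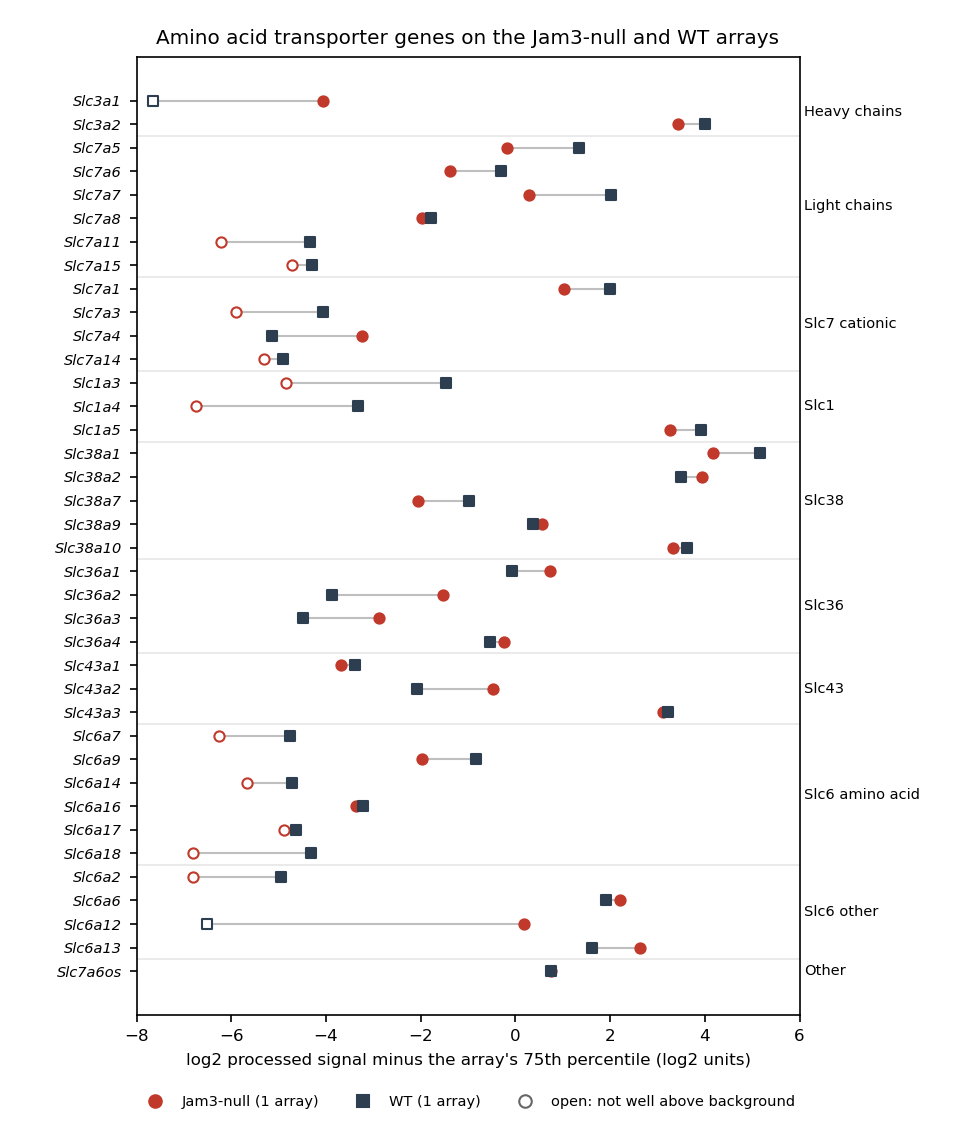
Log2 processed signal of each gene seen on at least 1 array, minus the array's 75th percentile, for the Jam3-null array (red circles) and the WT array (dark squares), grouped by family. Open symbols are not well above background; lines join the 2 arrays of a gene, and signals of different genes are not comparable because their probes differ.

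Signals are Agilent's processed signals on a linear scale, and differences are log2 values, Jam3-null minus WT, once the 75th percentile of each array was set equal; 2-fold is 1 on this scale. Of the 25 genes measured on both arrays, 5 (Slc7a4, Slc36a2, Slc36a3, Slc43a2 and Slc6a13) were at least 2-fold higher in Jam3-null cells, beside 10.3% of 14347 genes measured on both arrays, and 5 (Slc7a5, Slc7a6, Slc7a7, Slc38a7 and Slc6a9) were at least 2-fold lower, beside 8.64%. Each count is 20.0% of the 25. Their median was -0.15, beside -0.07 for all genes, and 56.0% of the 25 were below 0, beside 55.2% of all genes. The error-model SD of a difference ran from 0.20 to 0.32; it covers measurement within an array and leaves out animals and leukaemias. In such bulk samples, fewer cells of a type and less RNA per cell cannot be told apart.

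**Figure D2:**
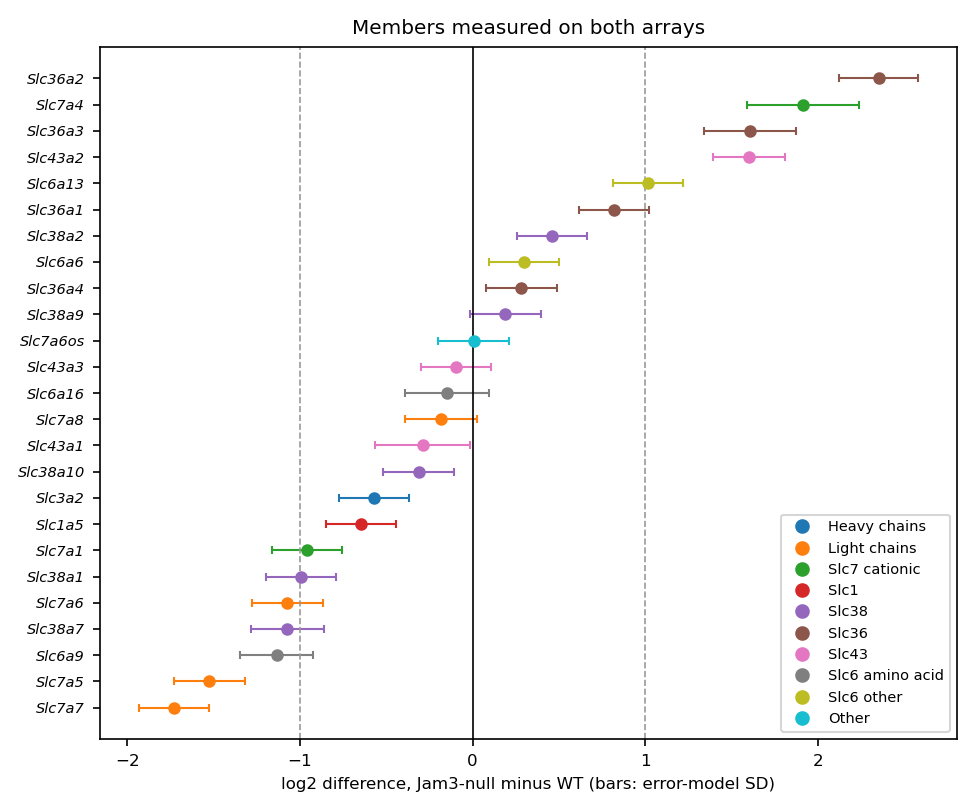
Log2 difference, Jam3-null minus WT, of the 25 genes measured on both arrays, sorted; bars are the error-model SD and dashed lines mark 2-fold. Slc36a2 lies highest at 2.35 and Slc7a7 lowest at -1.73, and the 4 light chains all lie below 0.

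The heavy chain Slc3a2, also called CD98 or 4F2hc, carries the light chains to the cell surface. Its processed signal was 7189 in Jam3-null cells and 11407 in WT cells, a log2 difference of -0.57. A dimmer probe of Slc3a2 read 434 in Jam3-null cells and 449 in WT cells, a scaled difference of 0.05. That is within its error-model SD of 0.21, so the sign of this probe was not resolved. The other heavy chain, Slc3a1, which partners with Slc7a9 in the kidney, was seen in Jam3-null cells alone at a signal of 40.1, against 3.53 in WT cells, at least 2.78-fold higher (1.69-fold after normexp background correction). Such a bound compares the bright array with the floor of the dim one, its lowest signal to pass, or the probe's own signal where that is higher.

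Of 10 light chains, 4 were measured on both arrays; all 4 had less signal in Jam3-null cells, 3 of them by at least 2-fold, with a median of -1.30. Over all genes 55.2% were below 0 and 8.64% at least 2-fold lower; after normexp correction 2 of the 4, Slc7a5 and Slc7a7, passed 2-fold. Slc7a7 encodes y+LAT1, which exchanges cationic for neutral amino acids and is known from lysinuric protein intolerance. Its signal was 813 in Jam3-null cells and 2881 in WT cells, 3.32-fold lower (log2 -1.73). Slc7a5 encodes LAT1, the main leucine and large neutral amino acid carrier of growing cells. It read 588 in Jam3-null cells against 1809 in WT cells, 2.88-fold lower (log2 -1.52). Over the alternative settings both stayed past 2-fold, from -1.82 to -1.63 for Slc7a7 and from -1.61 to -1.44 for Slc7a5.

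Slc7a6 encodes y+LAT2, the relative of Slc7a7 found in many tissues. It read 258 in Jam3-null cells and 579.5 in WT cells, a log2 difference of -1.07. Its second probe read 212 in Jam3-null cells and 269.9 in WT cells, a difference of -0.25. The mean over probes (-0.66) and normexp correction (-0.90) both left Slc7a6 short of 2-fold. The adjacent Slc7a6os differed by 0.01. Slc7a8, the LAT2 carrier, read 170.5 in Jam3-null cells and 207 in WT cells, a difference of -0.18 that is smaller than its error-model SD of 0.21. The cystine carrier Slc7a11 was seen in WT cells alone, with 9.03 in Jam3-null cells and 35.3 in WT cells, at least 1.28-fold lower (1.02-fold after normexp correction). That rests on 1 of its 4 probes: the other 3 passed on neither array and read higher in Jam3-null cells, the brightest with 20.3 in Jam3-null cells and 3.18 in WT cells. Slc7a15 likewise passed in WT cells alone, with 25.5 in Jam3-null cells and 36.4 in WT cells, at least 1.32-fold lower. After normexp correction Slc7a15 had no bound. Slc7a9, Slc7a10, Slc7a12 and Slc7a13 passed in neither.

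Among the cationic carriers, Slc7a1 encodes CAT1, the common arginine carrier. It read 1369.6 in Jam3-null cells and 2847 in WT cells, a log2 difference of -0.96, just short of 2-fold, and its second probe, at 80.7 in Jam3-null cells and 130.9 in WT cells, gave -0.60. Slc7a4, a relative for which no transport activity is established, went the other way. It read 70.8 in Jam3-null cells and 20.1 in WT cells, 3.76-fold higher (log2 1.91), but both signals were dim and normexp correction gave 0.90. Slc7a3 (CAT3) and Slc7a14 were seen in WT cells alone, with 11.2 and 16.9 in Jam3-null cells and 42.7 and 23.9 in WT cells. Slc7a3 was at least 1.54-fold lower (1.21-fold after normexp correction) and Slc7a14 has no bound.

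The Slc1 family holds the glutamate carriers and the neutral exchangers ASCT1 and ASCT2. Slc1a5, the ASCT2 glutamine carrier, read 6461 in Jam3-null cells and 10819 in WT cells, 1.57-fold lower (log2 -0.65). Slc1a3, the glutamate and aspartate carrier first known from glia, was seen in WT cells alone. Its signal was 23.2 in Jam3-null cells and 259.6 in WT cells, at least 9.39-fold lower, or 3.50-fold after normexp correction. Of its 3 probes, 0 were well above background in Jam3-null cells and 3 in WT cells; the other two read 21.9 and 6.54 in Jam3-null cells, against 185 and 36.8 in WT cells. Slc1a4, the ASCT1 carrier of serine and alanine, read 6.26 in Jam3-null cells and 71.2 in WT cells, at least 2.58-fold lower (1.46-fold after normexp correction), and its second probe read 7.51 in Jam3-null cells and 49.6 in WT cells.

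The Slc38 genes encode sodium-coupled neutral amino acid transporters, several of which carry glutamine. Slc38a1 (SNAT1) was read by 5 probes, and all 5 were lower in Jam3-null cells, from -1.40 to -0.33. Its brightest probe had 12100.3 in Jam3-null cells and 25730.3 in WT cells, a log2 difference of -0.99. The next brightest, at 3165 in Jam3-null cells and 7193 in WT cells, gave -1.09. Slc38a1 thus lay at the 2-fold line, past it after normexp correction (-1.02) and short of it under cyclic loess (-0.79). Its neighbour on chromosome 15, Slc38a2 (SNAT2), which cells are known to induce when amino acids run short, was higher on all 4 probes. Its brightest probe read 10309 in Jam3-null cells and 8009 in WT cells, 1.38-fold higher (log2 0.46). The other 3 probes gave 0.33, 0.49 and 0.05, the last within its error-model SD of 0.20. The adjacent genes thus had opposite signs, unresolved for that last probe, with neither 2-fold apart on the probe used. The third gene of that stretch, Slc38a4, passed in neither.

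Other Slc38 genes act at the lysosome. Slc38a7 (SNAT7), which exports glutamine from it, read 160.03 in Jam3-null cells and 360.2 in WT cells, a log2 difference of -1.07 (-0.80 after normexp correction). Slc38a9, the arginine sensor that signals to mTORC1, read a little higher on all 4 probes. The brightest had 993 in Jam3-null cells and 931 in WT cells (log2 0.19), within its error-model SD of 0.20. The other 3 differed by 0.63 to 0.82. Slc38a10 read 6677 in Jam3-null cells and 8860.2 in WT cells, a log2 difference of -0.31, and -0.44 for its second probe.

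**Figure D3:**
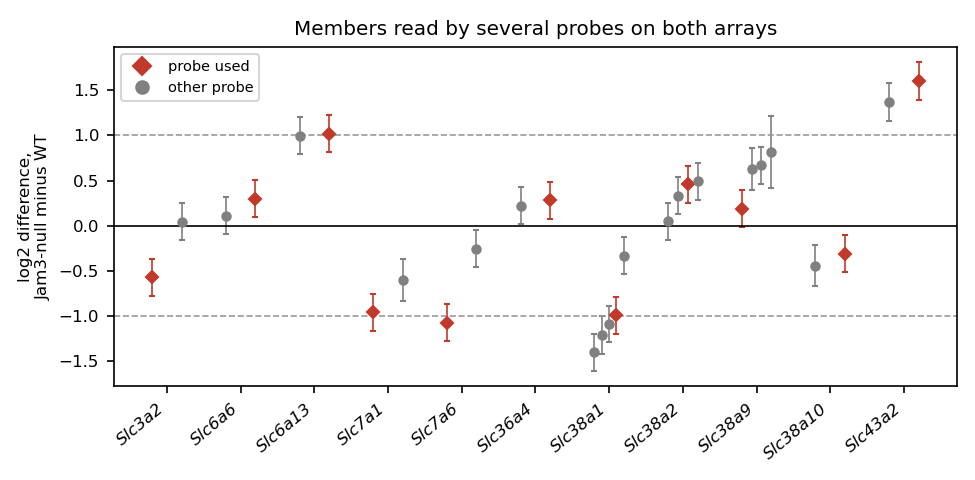
Log2 difference, Jam3-null minus WT, of every probe measured on both arrays, for the 11 genes with several such probes; red diamonds are the probes used and bars the error-model SD. The probes agree in sign in 10 genes and disagree in Slc3a2, whose dimmer probe lies within its error-model SD of 0.

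The proton-coupled Slc36 genes were all higher in Jam3-null cells, 2 of the 4 by at least 2-fold, with a median of 1.21, beside 10.3% of all genes at least 2-fold higher and an all-gene median of -0.07. After normexp correction 1 of the 4, Slc36a2, passed 2-fold. Slc36a2 (PAT2), a carrier of proline and glycine, read 231 in Jam3-null cells and 48.5 in WT cells, 5.10-fold higher (log2 2.35, or 1.52 after normexp correction); its other probe passed on neither array. Slc36a3, known from testis, read 91.0 in Jam3-null cells and 32.0 in WT cells, a log2 difference of 1.61. Normexp correction gave 0.80 for Slc36a3, and a second probe pointed the other way, with 21.2 in Jam3-null cells and 34.3 in WT cells and only the WT signal well above background. Slc36a1 (PAT1), which exports small amino acids from lysosomes, read 1116 in Jam3-null cells and 676 in WT cells, 1.77-fold higher (log2 0.82). Slc36a4 read 562 in Jam3-null cells and 494.5 in WT cells (log2 0.28).

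Slc36a1, Slc36a2 and Slc36a3 are direct neighbours on chromosome 11, with 0 protein-coding genes between each pair in RefSeq order. Slc36a4 lies on chromosome 9 and had the smallest difference of the 4.

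The Slc43 genes encode facilitated carriers. Slc43a2 (LAT4), a carrier of leucine, phenylalanine and methionine, read 478 in Jam3-null cells and 168.5 in WT cells, 3.03-fold higher (log2 1.60, with 1.37 for its second probe). Slc43a1 (LAT3), which carries a similar set, had 52.3 in Jam3-null cells and 68.4 in WT cells (log2 -0.29). Slc43a3, now known as a purine base carrier, read 5808 in Jam3-null cells and 6642 in WT cells, a log2 difference of -0.10 whose sign turned in 2 of 9 alternative settings. Among the leucine carriers, Slc7a5 was thus lower and Slc43a2 higher in Jam3-null cells.

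In the Slc6 family, Slc6a9 encodes GlyT1, a glycine carrier. It read 170.1 in Jam3-null cells and 399 in WT cells, 2.19-fold lower (log2 -1.13, or -0.89 after normexp correction). Slc6a16, an orphan member, read 65.3 in Jam3-null cells and 77.3 in WT cells, a difference of -0.15 within its error-model SD of 0.24. Of the 11 Slc6 genes of this group, 4 passed in WT cells alone. Slc6a7, a proline carrier, read 8.73 in Jam3-null cells and 26.4 in WT cells, and Slc6a14, a broad neutral and cationic carrier, read 13.1 in Jam3-null cells and 27.3 in WT cells; neither has a bound. Slc6a17, a vesicle carrier, read 22.6 in Jam3-null cells and 28.6 in WT cells, at least 1.03-fold lower, with no bound after normexp correction. Slc6a18, a kidney carrier, read 5.92 in Jam3-null cells and 36.04 in WT cells, at least 1.30-fold lower (1.10-fold after normexp correction). Each of these 4 genes passed on 1 probe, and its other probes passed on neither array.

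Slc6a12 and Slc6a13, direct neighbours on chromosome 6, encode the betaine and GABA carrier BGT1 and the GABA carrier GAT2. Slc6a12 was seen in Jam3-null cells alone, with 757 in Jam3-null cells and 7.85 in WT cells, at least 52.5-fold higher (10.8-fold after normexp correction). It has 1 probe on the array. Slc6a13 read 4127 in Jam3-null cells and 2181 in WT cells, a log2 difference of 1.02, and its second probe read 2982 in Jam3-null cells and 1599 in WT cells, a difference of 0.996. Scaling each array to its median, scaling on spike-in probes and normexp correction each took Slc6a13 just under 2-fold, down to 0.93. The taurine carrier Slc6a6 read 3086 in Jam3-null cells and 2683 in WT cells, a difference of 0.30. The noradrenaline carrier Slc6a2 passed in WT cells alone, with 5.94 in Jam3-null cells and 23.1 in WT cells, and has no bound.

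Among the genes seen on 1 array, 2 had a bound past 2-fold in each direction, Slc6a12 and Slc3a1 higher and Slc1a3 and Slc1a4 lower. These are 2 of 2 genes seen in Jam3-null cells alone and 2 of 11 seen in WT cells alone, against 493 of 508 and 396 of 2459 over all genes. The floor is lower on the WT array, so the directions are not comparable, and after normexp correction the bounds of Slc3a1 and Slc1a4 fell short of 2-fold. The probes of the 4 genes lie, on mm9, at chromosome 6, 121315541 to 121315600 (Slc6a12), chromosome 17, 85463142 to 85463201 (Slc3a1), chromosome 15, 8630573 to 8630632 (Slc1a3) and chromosome 11, 20203448 to 20203507 (Slc1a4). The lower genes measured on both arrays were read at chromosome 14, 54989166 to 54989225 (Slc7a7), and chromosome 8, 124405142 to 124405201 (Slc7a5). The higher ones were read at chromosome 11, 54972134 to 54972193 (Slc36a2), and chromosome 11, 75348053 to 75348112 (Slc43a2). The others past 2-fold were read at chromosome 8, 108721147 to 108721206 (Slc7a6), chromosome 8, 98360074 to 98360133 (Slc38a7), chromosome 4, 117541835 to 117541894 (Slc6a9), chromosome 16, 17573432 to 17573491 (Slc7a4), chromosome 11, 54938511 to 54938570 (Slc36a3), and chromosome 6, 121287597 to 121287656 (Slc6a13). Exon and UTR were not looked up on that build.

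The counts were set against all genes under other settings too. At 1.5-fold, 6 of 25 transporters were higher (18.5% of all genes) and 8 lower (20.3%), and at 3-fold, 4 were higher (4.96%) and 1 lower (2.94%). After normexp correction, Slc36a2 and Slc43a2 were 2-fold higher (7.33% of all genes) and Slc7a5, Slc7a7 and Slc38a1 lower (6.56%). Quantile normalization (10.6% and 8.34% of all genes higher and lower), cyclic loess (12.3% and 6.9%) and the authors' value table (10.7% and 8.15%) gave the same 5 higher and 5 lower genes. Median scaling took out Slc6a13 and added Slc38a1, giving 4 higher (9.87%) and 6 lower (9.18%), and spike-in scaling added Slc7a1 as well, giving 4 (9.21%) and 7 (10.5%). The mean over probes exchanged Slc7a6 for Slc38a1, giving 5 (10.2%) and 5 (8.27%). Among the 13 genes with a mean signal above the median, 1 was higher (7.26%) and 2 lower (7.93%), and with no filter on dim probes 8 of 62 were higher (10.5%) and 14 lower (10.7%).

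Enzymes that make or use the same amino acids were set beside the carriers. Of 10 measured genes of serine and glycine synthesis, 7 were at least 2-fold lower in Jam3-null cells, beside 8.64% of all genes. By the same measure 0 were higher, beside 10.3% of all genes, and the median was -1.20. After normexp correction 6 of the 10 passed 2-fold downward, beside 6.56% of all genes. The largest differences were Phgdh (-3.78), Psat1 (-2.31), the mitochondrial serine hydroxymethyltransferase Shmt2 (-1.83) and Gcsh of the glycine cleavage system (-1.79). The carriers described above for glycine went both ways. Slc6a9 was lower, at -1.13 (-0.89 after normexp correction), and Slc36a2, which also carries proline, was higher, at 2.35 (1.52). In the list of glutamine, branched-chain, arginine and cysteine metabolism, 2 of 26 were at least 2-fold higher and 5 lower (median -0.26). The shares over all genes were 10.3% and 8.64%. The glutaminase Gls2 was at 2.74 (1.65 after normexp correction) and Gatm, an enzyme of creatine synthesis, at 2.14, while the proline enzyme Pycr1 was at -2.62 and the arginine synthesis enzyme Ass1 at -2.52.

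The amino acid and integrated stress response list, which holds targets of ATF4, held genes on both sides. It had 27 measured genes, with 6 past 2-fold upward, 5 past it downward and a median of 0.02, beside 10.3% and 8.64% of all genes. After normexp correction the list had 4 past 2-fold upward and 5 downward. Atf4 itself was at 0.19. The largest differences were Phgdh, Pycr1 (-2.62), the stress gene Nupr1 (2.43, or 1.72 after normexp correction) and Psat1, some of which also stand in the lists above. The 3 genes of that list seen on a single array are named with their values known. The glutathione-degrading Chac1 and the lipoprotein receptor Vldlr were in Jam3-null cells alone, with bounds of 5.34 and 3.15 in log2 (3.004 and 1.46 after normexp correction), and the secreted glycoprotein Stc2 in WT cells alone, with -2.52 (-1.18).

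The genes by which mTORC1 senses amino acids were set beside the carriers too, and 2 of 29 measured were at least 2-fold apart, beside 18.9% of all genes. The higher one was the mTOR subunit Mlst8 (1.08). The lower one was Sesn3, of the sestrin family (-2.75, or -1.77 after normexp correction). The median of the 29 was -0.08. Nprl3 of the GATOR1 complex, at -0.99, and Sesn2, at 0.96, lay just short of 2-fold, and Mtor was at -0.25. Among 12 measured regulators of growth and nutrient uptake, 4 were at least 2-fold higher and 0 lower (median 0.44), beside 10.3% and 8.64% of all genes. The 4 were the Myc antagonists Mxd1 (2.42) and Mxd3 (2.02), Mitf (1.96, or 0.95 after normexp correction) and Nfe2l2 (1.76), which is known to drive Slc7a11. After normexp correction 3 of the 12 passed 2-fold upward. Myc was at -0.24.

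**Figure D4:**
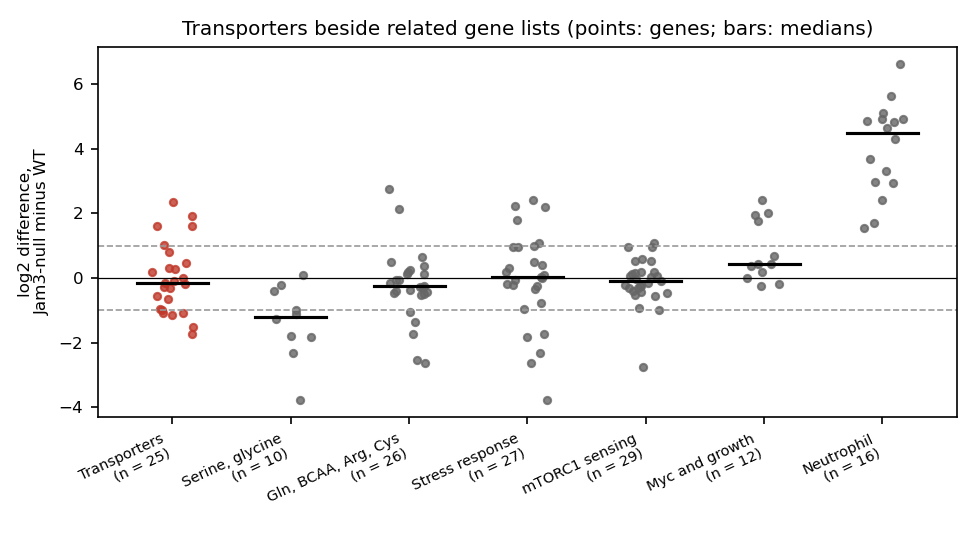
Log2 difference, Jam3-null minus WT, of the 25 transporter genes (red) and of the measured genes of 6 related lists (grey); points are genes, bars medians and dashed lines 2-fold. The serine and glycine list lies lowest (median -1.20) and the neutrophil list highest (4.48), with the transporters around 0 (-0.15).

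Markers of maturing and of other blood cells differed as well. For comparison, 10.3% of all genes were at least 2-fold higher in Jam3-null cells and 8.64% at least 2-fold lower. Each of the 16 neutrophil maturation genes had a higher value in Jam3-null cells by 2-fold or more, with a summed scaled signal of 1880.4 in Jam3-null cells and 274.9 in WT cells. The largest differences were the lectin Fcnb (6.63), the integrin subunit Itgb2l (5.64), the formyl peptide receptor Fpr2 (5.09, or 4.40 after normexp correction) and the cathelicidin Camp (4.92). Mast cell, basophil and eosinophil genes were lower by at least 2-fold, 6 of 6 measured, or 5 after normexp correction. Their sums were 8.91 in Jam3-null cells and 48.2 in WT cells (Ms4a2 not above background in either). Dendritic genes had sums of 5.24 in Jam3-null cells and 28.9 in WT cells, with 3 of 6 measured lower by 2-fold (Siglech and Batf3 not above background in either). These sums were mostly Tcf4, named after its values were seen (2067 in Jam3-null cells and 14594 in WT cells). Of the 6, 1 was above 0, Cd74 (0.52). Monocyte and macrophage genes had sums of 62.1 in Jam3-null cells and 112.7 in WT cells, with 5 of 12 measured at least 2-fold higher and 1 lower (Mrc1 not above background in either). That lower sum runs against the list, of which 9 of 12 were above 0 with a median of 0.82; it rests on Ly86, named after its values were seen, at 10140.9 in Jam3-null cells and 59304.1 in WT cells. Erythroid sums were 3.03 in Jam3-null cells and 1.78 in WT cells, megakaryocyte sums 1.52 in Jam3-null cells and 0.685 in WT cells, B cell sums 11.9 in Jam3-null cells and 18.8 in WT cells, and T and NK cell sums 23.1 in Jam3-null cells and 6.61 in WT cells. The B cell sums were mostly Cd79b, named after its values were seen (7761 in Jam3-null cells and 11222 in WT cells). The T and NK sum was nearly all Nkg7, a granule gene named after its values were seen (15159.8 in Jam3-null cells and 4526 in WT cells). The other 3 genes measured on both arrays, Cd3e (-0.11), Cd3g (-0.17) and Cd4 (-0.25), were lower in Jam3-null cells, each within its error-model SD. Cd3d and Klrb1c passed in Jam3-null cells alone, with bounds of 2.30 and 1.88 in log2 (0.96 and 0.74 after normexp correction). The list's median was -0.14 (0.04 after normexp correction). Of the defining genes of these cell types, Ppbp, Pax5, Cd79a, Cd8a and Ncr1 were among those not well above background on either array. The sort genes Itgam and Kit were well above background on both arrays, with differences of 3.71 and 0.09. The part of these cell types in the transporter differences was not tested.

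**Figure D5:**
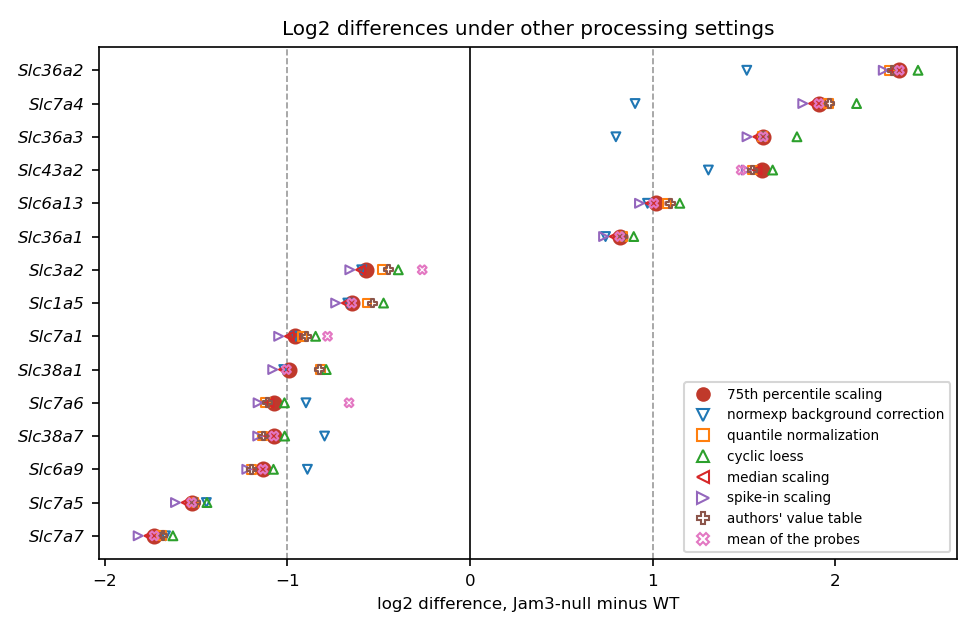
Log2 difference, Jam3-null minus WT, of the 10 genes at least 2-fold apart and 5 others named in the text, under percentile scaling (large red circles) and 7 other settings (small symbols). No gene shown changes sign, and Slc7a5, Slc7a7, Slc36a2 and Slc43a2 stay past 2-fold (dashed lines) throughout.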

How the data were processed

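RNA from sorted leukaemia cells was labelled with Cy3 on 1 one-colour Agilent array per genotype, per the labels' protocols. The deposited spot intensities come, per the file headers, from Agilent Feature Extraction version 10.7.3.1 (the submitters' processing notes name 10.7): background-subtracted, detrended within the array, on a linear scale, not normalized between arrays. The authors' value table holds log2 values, which followed the log2 processed signals (r 0.999 on each array), with columns alike in distribution; how it was normalized is not stated in these sources.

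Outlier spots on either array were left out, and log2 signals minus the array's 75th percentile (667.8 for Jam3-null, 713.9 for WT) were averaged per probe. Of 43379 non-control spots, 55.0% (Jam3-null) and 61.8% (WT) passed as well above background. Both arrays shared 1 slide and 1 scan, per the file headers, at different array positions. The number of arrays limits the precision. Members and lists were chosen with earlier results of these data known. Every member seen on at least 1 array is named, with the 4 largest differences of each related list; a few genes are not reported here. Names for other genes came from RefSeq (GRCm38.p6; 27662 probes by accession, 471 by an older symbol). The gene table and its 2-fold counts were tested on simulated data. Each probe's own coordinates are on mm9, from the array files. Alternatives were normexp (offset 50), quantile, cyclic loess, median and spike-in scaling, the authors' table, no filter or a stricter filter on dim probes, mean over probes and 1.5-fold and 3-fold thresholds. R 4.3.3, limma 3.58.1, Python 3.11.15, numpy 2.4.6 and pandas 2.3.3 were used.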

Additional observations from a re-analysis of the deposited data

How the results depend on the processing

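Of 25 measured genes, 23 kept their sign in every alternative tried; the exceptions, Slc43a3 and Slc7a6os, were within 0.10 of 0. The 5 higher and 5 lower genes were the same under quantile normalization, cyclic loess and the authors' value table. After normexp background correction, 2 genes passed 2-fold upward and 3 downward, beside 7.33% and 6.56% of all genes. With no filter on dim probes, where dim spots hold surrogate values, 8 were higher and 14 lower of 62. Over all genes those shares were 10.5% and 10.7%. With the brighter genes alone, 1 was higher and 2 lower of 13, beside 7.26% and 7.93% of all genes. The higher genes Slc36a2, Slc36a3, Slc43a2 and Slc7a4 and the lower genes Slc38a7, Slc6a9 and Slc7a6 fell below that signal cut. At 1.5-fold, 8 were lower (20.3% of all genes), and at 3-fold, 1 was (2.94%). Leaving out Slc7a6os, an alternative chosen after seeing the data, left both counts at 5. The median difference of all genes was 0.06 under cyclic loess, against -0.07 under the main scaling. The cause of the other changes was not tested. Signal over background limits the dim genes Slc7a4 and Slc36a3 and every bound. No paired analysis was possible because each genotype has 1 array.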
